A study of Mus musculus with 6 samples.

Results

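The cytochrome P450 genes, named Cyp with a family number and a subfamily letter, were followed in mouse skin with and without the transcription factor Sox4. Members were all array genes whose accession maps to a symbol of that form, apart from Cyp2g1, Cyp4f39 and Cyp51, which were left out by rule. This gave 95 of 20880 named genes on the array, measured by 116 probes, and 4 of the 95 are annotated as pseudogenes. The choice used names alone and no measured value.

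The samples were 6 one-colour Agilent arrays, each of RNA from untreated skin described as in telogen, when hair follicles rest. There were 3 arrays of mice in which Sox4 was conditionally deleted in skin (KO) and 3 of wild-type mice (WT). All were males of a mixed C57Bl6/129Sv background with a 75:25 contribution. KO replicates 1, 2 and 3 came from mice aged 17, 18 and 16 weeks, and WT replicates 1, 2 and 3 from mice aged 20, 19 and 18 weeks. The groups met in age only at 18 weeks, so age and genotype can hardly be separated on 6 arrays. The sources used here do not give the recombinase driver, and hence which skin cells lost Sox4. The series asked what Sox4 contributes to resting skin. The arrays of a group carry different ages and were treated as different animals.

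Cytochrome P450 enzymes are haem proteins that insert oxygen into small lipophilic molecules. Most sit in the endoplasmic reticulum and take electrons from the reductase Por, while a few are mitochondrial and take them from adrenodoxin, Fdx1. Some act on drugs and pollutants, others on fatty acids, steroids, vitamin D or retinoic acid, and skin is known for its own set of retinoid and fatty acid enzymes.

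Signals are given as log2 of the processed signal relative to the 75th percentile of the same array, so that 0 is the level of a probe at that percentile. Probes differ in their response, so levels are compared between arrays for 1 probe and not between genes. Sox4 itself lay at -2.94, -2.88 and -3.05 in KO and at 0.41, 0.65 and 0.75 in WT, 11.8-fold lower in KO (limma adjusted p = 0.00135). Where its probe lies relative to the deleted stretch was not analysed here. The share of probes well above background ran from 52.1% in KO replicate 2 to 66.4% in KO replicate 1. Slide 1 held KO replicate 3 and WT replicate 1, slide 2 held KO replicate 1 and WT replicates 2 and 3, and slide 3 held KO replicate 2 alone. All 7 keratinocyte markers, among them Krt5 and Krt14, were well above background on all 6 arrays. The arrays' small number limits the precision of every value. Each limma p-value sets the difference between group means against the spread among arrays within the groups, moderated over all features.

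The stretches before the gene start of the 3 members with the smallest unadjusted p are shown, since the comparison asks about the loss of a DNA-binding factor. They are RefSeq sequences of build GRCm38.p6, 250 bases long, ending 1 base before the annotated start and written 5′ to 3′ on the gene's strand. Capitals mark TATAAA on the gene's strand, and AACAAT or AACAAAG, forms of the box that Sox proteins bind, on either strand. Cyp2j11 lies on the minus strand at chr4:96348681-96348930, Cyp2e1 on the plus strand at chr7:140763569-140763818 and Cyp2b10 on the plus strand at chr7:25897408-25897657.
Cyp2j11: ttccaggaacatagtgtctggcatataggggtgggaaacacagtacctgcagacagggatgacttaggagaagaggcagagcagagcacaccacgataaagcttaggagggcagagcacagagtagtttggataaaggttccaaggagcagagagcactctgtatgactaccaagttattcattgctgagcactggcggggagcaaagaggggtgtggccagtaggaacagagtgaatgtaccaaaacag
Cyp2e1: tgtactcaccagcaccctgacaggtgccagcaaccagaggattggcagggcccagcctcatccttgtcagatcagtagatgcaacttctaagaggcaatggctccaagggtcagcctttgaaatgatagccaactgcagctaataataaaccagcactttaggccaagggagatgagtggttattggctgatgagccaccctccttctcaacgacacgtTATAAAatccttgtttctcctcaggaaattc
Cyp2b10: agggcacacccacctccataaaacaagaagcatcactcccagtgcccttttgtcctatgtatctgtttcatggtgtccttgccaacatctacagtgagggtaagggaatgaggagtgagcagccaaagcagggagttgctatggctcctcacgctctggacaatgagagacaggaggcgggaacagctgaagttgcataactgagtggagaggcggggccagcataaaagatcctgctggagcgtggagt
TATAAA occurred in the Cyp2e1 stretch at -31, counted from the start, and in neither of the others. No AACAAT or AACAAAG was in the 3 windows, which says nothing of binding. Of 95 members 70 had an entry, and of those 27.1% held TATAAA, against 8.12% of 27025 genes in the table. AACAAT was in 4 of the 70 (5.71%, against 9.65% of all genes) and AACAAAG in 8 (11.4%, against 4.99%). Among members measurable here, Cyp1b1 and Cyp2c38 held both Sox letters, which share AACAA, and Cyp2c66, Cyp2d11 and Cyp2d26 held AACAAAG alone. A match in these letters is a description and not a binding site.

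A gene was kept for testing when all 3 arrays of KO, or all 3 of WT, had 1 of its probes well above background. By that measure 51 of the 95 members were kept (53.7%), against 71.5% of all named genes. Of the 51, 40 were well above background on all 6 arrays, 3 (Cyp2j11, Cyp2t4 and Cyp3a11) passed through KO alone and 8 through WT alone. The 8 were Cyp27b1, Cyp2a4, Cyp2c66, Cyp2c67, Cyp2d9, Cyp2d22, Cyp2d26 and Cyp2d40. A further 14 members were well above background on some arrays without filling a group, and 30 on none.

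Among the 30 were enzymes with well-known roles in other organs. The liver bile acid enzymes Cyp7a1 and Cyp8b1, aromatase (Cyp19a1), the adrenal enzymes Cyp11b1 and Cyp11b2, and Cyp1a2, a liver enzyme, were not well above background on any array. Neither were Cyp24a1, which inactivates vitamin D, nor Cyp26a1 and Cyp26c1, which clear retinoic acid. By subfamily, in Cyp2j 5 of 6 members were kept, in Cyp3a 5 of 8 and in Cyp2b 3 of 5, against 5 of 13 in Cyp2c, 4 of 9 in Cyp4f and 2 of 8 in Cyp4a. Counted per array, KO replicates 1 to 3 had 63, 44 and 55 members well above background, and WT replicates 1 to 3 had 55, 48 and 51. The highest and the lowest count were thus both in KO, on the arrays with the highest and the lowest share of all probes.

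**Figure D1:**
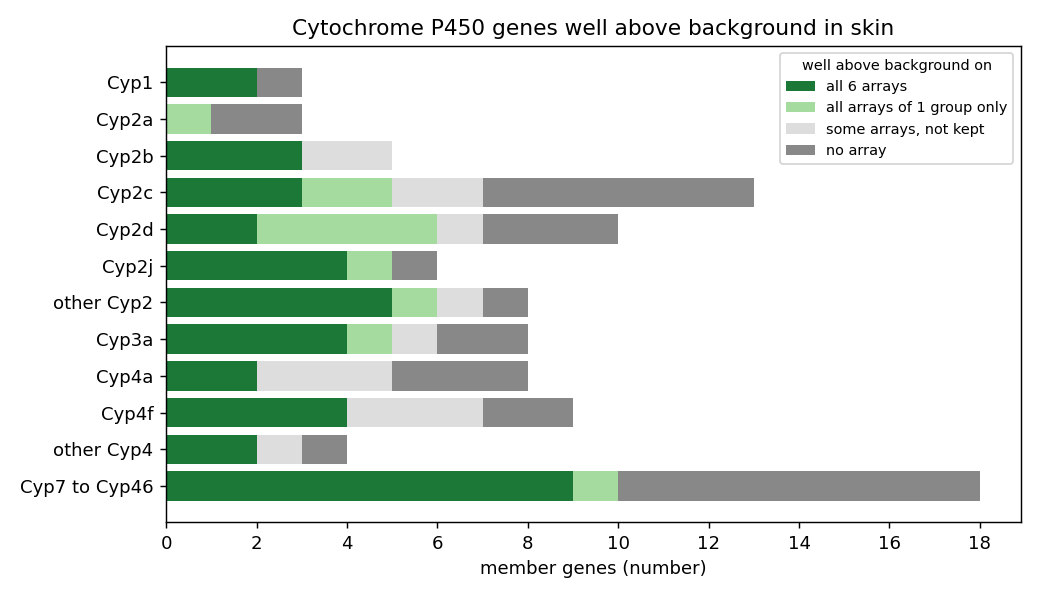
Number of member genes (x axis) in each family or subfamily (y axis), split by the arrays on which the gene was well above background. Of 13 Cyp2c genes 6 were well above background on no array, as was 1 of 6 Cyp2j genes.

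No member passed the adjusted threshold of 0.05 in the fit over 22823 genes and transcripts (0 of 51, smallest adjusted p = 0.175), where 5 features did (0.0219%), 1 of them higher in KO (0.00438%) and 4 lower (0.0175%). Unadjusted p was under 0.05 for 6 of the 51, 3 higher and 3 lower in KO, beside 11.8% of all features tested (6.26% higher and 5.5% lower). Of the 3 higher ones, Cyp2j11, which has the smallest p, and Cyp3a11 passed the filter through KO alone, the group where they are high. The count was 5 of 40 members in a fit over features well above background on all 6 arrays. Beside it stood 2568 of roughly 20990 features, a share close to that of the members. For 8 of the 51 the groups were fully apart, 2 with KO above WT and 6 with KO below, beside 19.3% of all features (7.56% above and 11.8% below). Of these 8, Cyp2j11 passed the filter through KO alone and Cyp2c66 and Cyp2d9 through WT alone, so the filter favoured their separation. Differences were negative for 39 of the 51, beside 64.1% of all features. Neither the share by unadjusted p nor the share without overlap stood above that of all features. Differences are KO minus WT on the log2 scale, and an exact permutation of 3 against 3 arrays cannot give a two-sided p below 0.1, the value of every member without overlap.

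**Figure D2:**
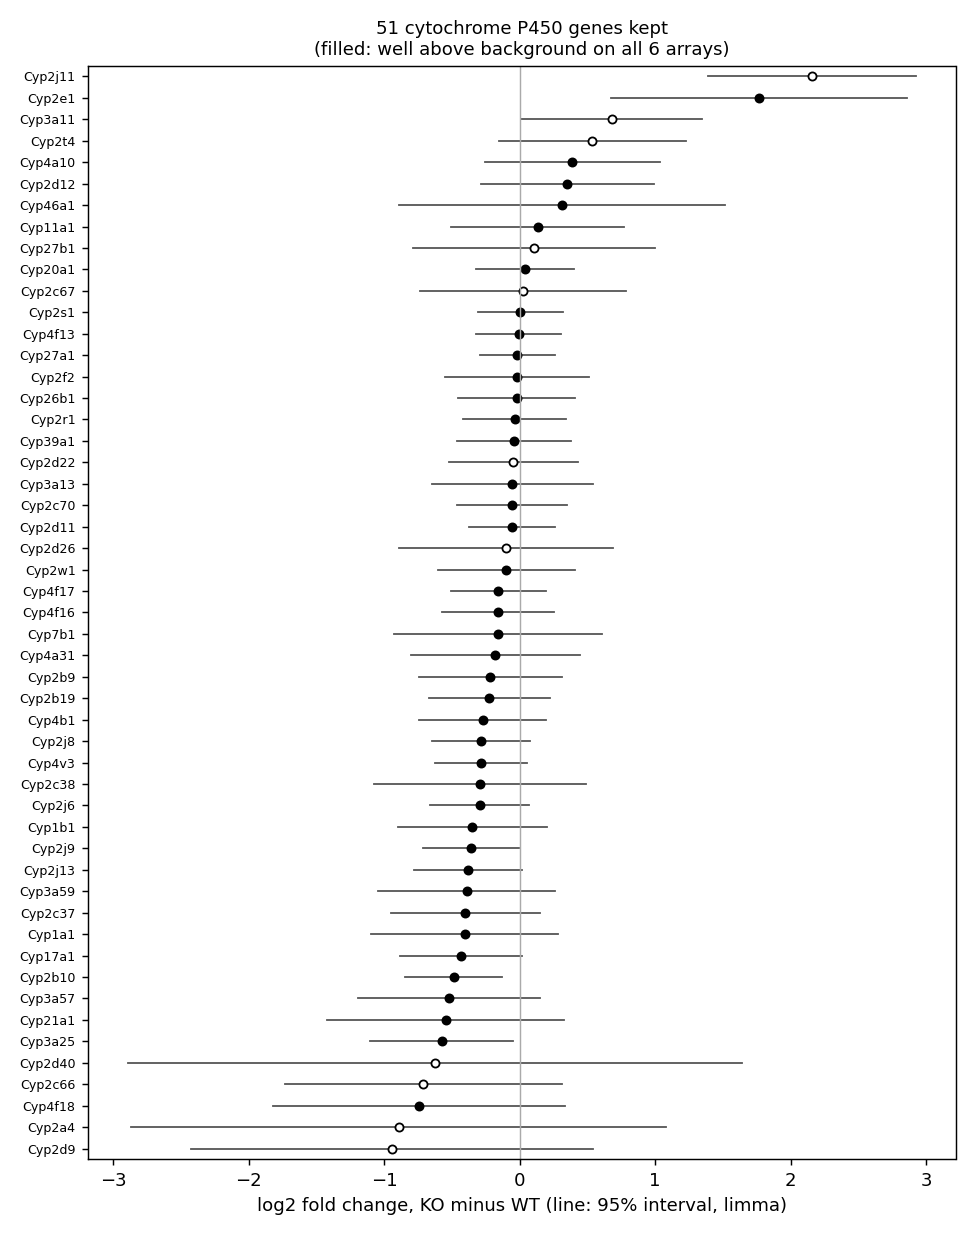
Log2 fold change, KO minus WT (x axis), of the 51 kept genes (y axis), with the 95% interval from limma. Filled points were well above background on all 6 arrays, and Cyp2j11 and Cyp2e1 stand farthest to the right.

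Cyp2e1, which oxidises ethanol, acetone and small solvents, showed the largest difference among the 40 members well above background on all arrays. Its brighter probe lay at 5.69, 5.38 and 4.96 in KO and at 3.57, 2.67 and 4.49 in WT, in processed signal 31358, 21090 and 15384 units in KO against 4499, 3109 and 9798 units in WT. Every KO skin was above every WT skin, and WT replicate 3 came nearest to KO. The difference was 1.77 (SE 0.45, n = 3 per group), 3.41-fold with a 95% interval of 1.6-fold to 7.27-fold, and did not pass (limma adjusted p = 0.278). A second, dimmer probe gave 3.33 ± 0.34 in KO and 1.46 ± 0.90 in WT (SD, n = 3), a difference of 1.87 with no overlap either. Within slide 1 the brighter probe differed by 1.40 and within slide 2 by 2.11. In whole skin, more cells of a type and more RNA per cell cannot be told apart.

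Because Cyp2e1 is a gene of fat and liver as well, marker lists of other cell types are set beside it. Each array is scored by the median, over a list's kept genes, of log2 signal minus the WT mean. The skeletal muscle score was 1.56 to 2.25 in KO and -0.77 to 1.14 in WT, with all 12 markers higher in KO and 9 of them without overlap. The white adipocyte score ran from -0.57 to 0.26 in KO and from -0.91 to 0.45 in WT, with 6 of 8 markers lower in KO and Lep alone without overlap. The hepatocyte list, of which 4 of 7 were kept (Apoa1, Fgb and Ahsg were not), scored -0.57 to 0.10 in KO and -0.69 to 0.55 in WT. The hair shaft and inner root sheath score stood at 6.02 in KO replicate 1, 5.17 in KO replicate 2 and -0.10 in KO replicate 3, against -0.12 to 0.27 in WT. All 12 kept genes of that list had positive differences, 3 without overlap, and 11 of them were well above background on all 6 arrays. Whether the follicles of KO replicates 1 and 2 were at rest was not tested. T and natural killer cell genes scored -1.24 to -1.1 in KO and -0.17 to 0.17 in WT, all 9 negative and without overlap. Of the 9, 8 were well above background on all 6 arrays. The remaining gene of this list and of the hair list passed the filter through a single group. Macrophage, fibroblast, endothelial and adrenal or gonad markers had median differences of -0.19, -0.17, -0.10 and -0.12. The parts of these cell types in the Cyp2e1 difference were not tested. With KO replicates 1 and 2 left out together, the difference was 1.39.

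**Figure D3:**
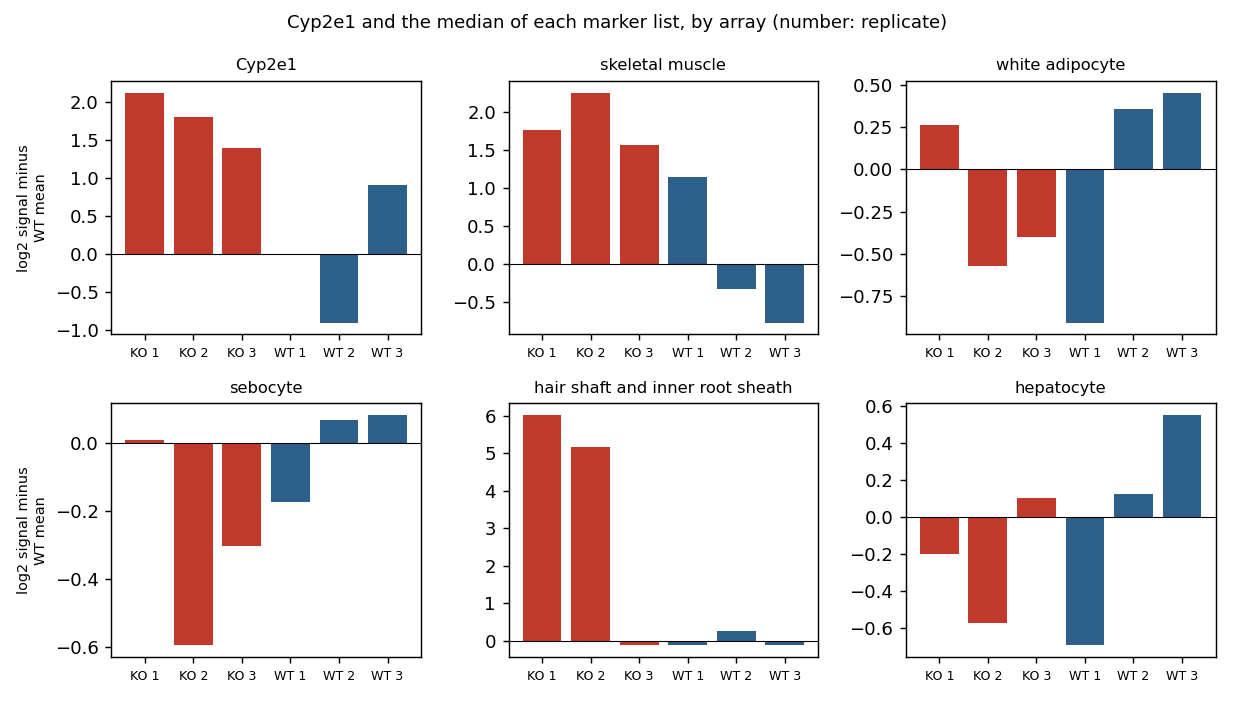
Log2 signal minus the WT mean (y axis, a separate scale in each panel) by array (x axis) for Cyp2e1 and for the median of 5 marker lists. Cyp2e1 was above its WT mean in all 3 KO arrays, as was skeletal muscle, whereas hair shaft genes were high in KO replicates 1 and 2 only.

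Cyp2j11 had the smallest unadjusted p of the family (0.000367, limma adjusted p = 0.175) and a low signal. It lay at -4.61, -3.79 and -3.92 in KO and at -6.43, -6.67 and -5.70 in WT. No WT array was well above background, so the WT level is not firmly measured. With each WT array set to the higher of its own signal and the lowest signal well above background, KO was 1.35-fold higher. This is not a strict minimum. In WT replicate 2 that lowest signal was 20.1 units, while Cyp3a11 at 24.7 units was not well above background. Cyp2j11 passed the filter through KO alone and so had to lie higher there. The fitted difference was 2.16 (SE 0.32, n = 3 per group), and 0.34 with normexp background correction and quantile normalization.

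The other Cyp2j genes, whose subfamily makes epoxides of arachidonic acid, had negative differences, all 4 well above background on all arrays. Cyp2j9 lay at 1.47, 1.32 and 1.74 in KO and at 1.86, 1.75 and 2.0 in WT, with KO below WT throughout (-0.36, SE 0.15, limma adjusted p = 0.422). The closest values of Cyp2j9 were 1.74 in KO replicate 3 and 1.75 in WT replicate 2. Cyp2j13 read -0.51, -0.40 and -0.02 in KO and -0.05, 0.23 and 0.02 in WT, a difference of -0.38 (SE 0.17). Cyp2j6 read 1.07, 0.89 and 0.95 in KO and 1.0, 1.43 and 1.37 in WT, a difference of -0.30 (SE 0.15). Its dimmer probe differed by -0.11. Overlap was present in these 2 and in Cyp2j8, and the limma adjusted p of the 3 ran from 0.438 to 0.495. Cyp2j8 read 1.39, 1.51 and 1.54 in KO and 1.5, 1.97 and 1.83 in WT, a difference of -0.29 (SE 0.15). In each of these 3 it was WT replicate 1 that lay among the KO values. Within slide 1 the 4 genes differed by -0.12 to 0.04 and within slide 2 by -0.64 to -0.33. Cyp2j5 was well above background in none of the 6 skins. Probe sequences are not used here, so how far a probe of 1 Cyp2j gene reads its close relatives was not tested.

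Cyp2b10, the phenobarbital-inducible enzyme of liver, was the lower-lying gene with the smallest p. It read 4.5, 4.25 and 4.62 in KO and 4.79, 5.10 and 4.94 in WT. All KO arrays were below all WT arrays, 1.40-fold on average (-0.49, SE 0.15, 95% interval -0.84 to -0.13, limma adjusted p = 0.32). Within slide 1 the difference was -0.18 and within slide 2 -0.52. Its relative Cyp2b19, an epoxygenase of mouse keratinocytes, overlapped between groups at 2.24, 2.18 and 1.70 in KO and 2.28, 2.07 and 2.43 in WT (-0.23, 95% interval -0.67 to 0.22). Cyp2b9 differed by -0.22 with an interval of -0.75 to 0.31. Keratinocyte markers scored -0.24 to -0.17 in KO and -0.15 to 0.22 in WT. All 7 had negative differences, 1 without overlap, beside 64.1% negative and 19.3% without overlap over all features.

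**Figure D4:**
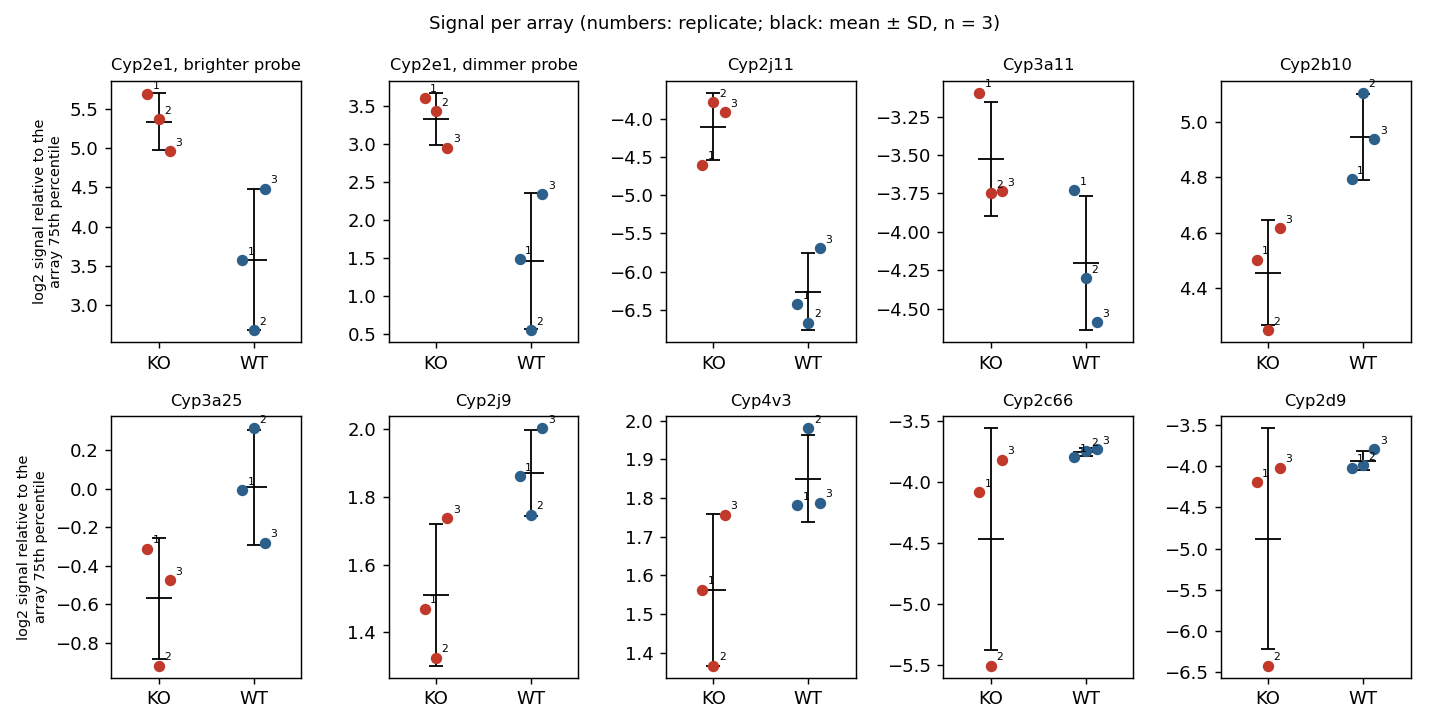
Log2 signal relative to the array's 75th percentile (y axis, a separate scale in each panel) in KO and WT for both Cyp2e1 probes and the other 8 genes with unadjusted p under 0.05 or no overlap. Points are arrays numbered by replicate, and black marks are the mean ± SD (n = 3). KO replicate 2 lies lowest in Cyp2c66 and Cyp2d9.

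In the Cyp3a subfamily, which handles drugs and steroids, 4 of 5 kept genes lay lower in KO. Cyp3a25 read -0.31, -0.92 and -0.47 in KO and -0.01, 0.31 and -0.28 in WT, without overlap (-0.58, SE 0.22, limma adjusted p = 0.397). The gap between its groups was small, since KO replicate 1 and WT replicate 3 lay side by side. Cyp3a57 read 0.01, -0.88 and -0.50 in KO and -0.12, 0.48 and -0.16 in WT (-0.52, SE 0.28). Cyp3a59 read -1.42, -2.35 and -1.86 in KO and -1.70, -1.13 and -1.62 in WT (-0.39, SE 0.27). Both were lowest in KO replicate 2 and highest in WT replicate 2. Cyp3a11, a target of the xenobiotic receptor PXR in liver, lay at -3.10, -3.75 and -3.73 in KO and at -3.73, -4.30 and -4.58 in WT. It was well above background on 1 WT array, passed the filter through KO alone, and overlapped (0.68, SE 0.28, limma adjusted p = 0.421). Within slide 1 its difference was -0.00456, against 1.34 within slide 2. Cyp3a13 differed by -0.05 (95% interval -0.65 to 0.54).

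Cyp4 enzymes hydroxylate the far end of fatty acids. All 8 kept members were well above background on all arrays, and 7 of the 8 differences were negative. Cyp4v3, whose human counterpart is mutated in a crystalline retinal dystrophy, read 1.56, 1.37 and 1.76 in KO and 1.78, 1.98 and 1.79 in WT (-0.29, SE 0.14, limma adjusted p = 0.478). Its groups did not overlap, by a margin of hundredths between KO replicate 3 and WT replicate 1. Cyp4f18, which acts on leukotriene B4 in mouse neutrophils, had the lowest value of the 40 differences (-0.74, SE 0.45) with a wide spread. It lay at 0.78, -1.13 and -0.01 in KO and at 0.71, 0.57 and 0.58 in WT, so KO replicate 1 was the highest array. Cyp4b1 was lower in KO replicates 1 and 2 (2.45 and 2.11) than in any WT array (2.72, 2.75 and 2.76), but highest in KO replicate 3 (2.85). Cyp4f17 read -0.25, -0.50 and -0.18 in KO and -0.20, -0.29 and 0.03 in WT, and Cyp4f16 read -0.99, -1.36 and -1.48 in KO and -1.20, -1.24 and -0.90 in WT. With Cyp4f13, their differences of -0.16 to -0.01 lay within overlapping groups. Cyp4a10, a PPAR-alpha target in liver, read -3.14, -2.38 and -2.34 in KO and -2.76, -3.37 and -2.90 in WT by its brighter probe. That probe gave a difference of 0.39 and the dimmer one -0.60. The dimmer probe read -3.40, -5.68 and -3.39 in KO, where replicate 2 was not well above background, against a WT mean of -3.56. Its negative difference thus rests on KO replicate 2, since the other KO values lay above the WT mean.

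The Cyp1 enzymes are the classic targets of the aryl hydrocarbon receptor, Ahr. Cyp1a1 lay at 0.59, -0.27 and 0.51 in KO and at 0.60, 1.07 and 0.37 in WT (-0.41, 95% interval -1.1 to 0.28). Cyp1b1 lay at 1.87, 1.1 and 1.07 in KO and at 1.67, 1.72 and 1.69 in WT (-0.35, 95% interval -0.90 to 0.20). KO replicate 1 was the highest Cyp1b1 array, whereas the other KO arrays were below WT. Another dioxin-responsive gene of surface epithelia, Cyp2s1, differed by 0.0049 with an interval of -0.31 to 0.32. None of the 6 receptor partner genes passed (Nqo1 0.36, Ahr -0.30 and Aldh3a1 -0.36, limma adjusted p 0.505 to 0.553), and 3 were positive and 3 negative.

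Retinoic acid is cleared by Cyp26 enzymes, of which Cyp26b1 alone was measurable. It read 5.34, 4.70 and 5.13 in KO and 5.07, 5.13 and 5.04 in WT, with the WT values inside the KO range. The difference was -0.02, and its 95% interval of -0.45 to 0.41 spans 0.73-fold to 1.32-fold. Among 16 retinoid partners 0 passed the adjusted threshold, 2 lay higher and 2 lower at unadjusted p under 0.05. Of the 16 differences 11 were negative, and of 7 genes without overlap 6 lay lower in KO. Over all features 64.1% were negative, 19.3% were without overlap, and 11.8% lay lower in KO without overlap. Among the higher genes, Aldh1a1, which makes retinoic acid, differed by 0.54 (SE 0.19) and Lrat, which stores retinol as esters, by 0.57 (SE 0.22). Neither passed, and Aldh1a1 did not overlap between groups, whereas Lrat did.

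For vitamin D, Cyp2r1 makes the circulating form and Cyp27b1 the active hormone. Cyp2r1 read 1.25, 1.23 and 1.59 in KO and 1.20, 1.45 and 1.54 in WT (-0.04, 95% interval -0.42 to 0.34). Cyp27a1, a mitochondrial sterol hydroxylase, read -1.16, -1.11 and -0.98 in KO and -0.97, -1.17 and -1.05 in WT (-0.02, 95% interval -0.30 to 0.26). By these probes both groups covered nearly the same range in each. A dimmer Cyp2r1 probe differed by -0.25, with overlap. Cyp27b1 was dim, well above background on 2 KO arrays and all WT arrays, and read -2.78, -4.16 and -3.82 in KO and -3.92, -3.32 and -3.84 in WT. Its difference was 0.11 (95% interval -0.79 to 1.0). The receptor gene Vdr differed by -0.13 and Rxra by -0.13, neither passing (limma adjusted p = 0.733 and 0.603), although Rxra was without overlap.

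Steroid synthesis starts with Cyp11a1, which cuts the side chain of cholesterol, and goes on through Cyp17a1 toward androgens and Cyp21a1 toward corticoids. Cyp17a1 lay at 2.03, 1.70 and 2.19 in KO and at 2.13, 2.58 and 2.52 in WT (-0.43, SE 0.19, limma adjusted p = 0.436). Only WT replicate 1 was within the KO range. Cyp11a1 read -1.98, -1.46 and -1.90 in KO and -2.30, -2.03 and -1.40 in WT (0.13, 95% interval -0.50 to 0.77). Cyp21a1 read -1.5, -2.91 and -1.75 in KO and -1.60, -1.60 and -1.32 in WT, with KO replicate 2 far below the rest (-0.55, 95% interval -1.42 to 0.33). Of 9 kept steroid partners 0 passed. Hsd3b6, a steroid dehydrogenase, read -1.89, -1.75 and -1.76 in KO and -1.06, -0.55 and -0.81 in WT (-0.99, SE 0.16, limma adjusted p = 0.208). Hsd17b2 differed by -0.59 (SE 0.16), also without overlap. Sebocytes are a known site of steroid conversion in skin. Their markers scored -0.59 to 0.01 in KO and -0.17 to 0.08 in WT, with 11 of 12 negative and 3 without overlap. Over all features 64.1% were negative and 19.3% without overlap. The part of sebocytes in these values was not tested.

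None of the 4 measurable sterol and bile acid enzymes passed, and their differences ran in both directions. Cyp39a1, which acts on an oxysterol, read 2.34, 2.80 and 2.90 in KO and 2.82, 2.75 and 2.60 in WT (-0.04, 95% interval -0.46 to 0.38). Cyp7b1 lay at -0.23, 0.49 and 1.07 in KO and at 0.64, 0.73 and 0.45 in WT, a KO spread that took in the WT values. Cyp46a1, the cholesterol hydroxylase of brain, read -2.72, -1.64 and -1.26 in KO and -2.18, -2.96 and -1.41 in WT. Each of its groups spread over more than 1 log2 unit, and the difference was 0.31 (95% interval -0.90 to 1.51).

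Cyp2c enzymes act on drugs and fatty acids, and Cyp2d enzymes mainly on drugs. Of their kept genes, 3 of 5 in Cyp2c and 2 of 6 in Cyp2d were well above background on all arrays, and KO replicate 2 was the low array in several. Cyp2c66 read -4.08, -5.51 and -3.82 in KO and -3.80, -3.75 and -3.73 in WT. Cyp2d9 read -4.20, -6.42 and -4.02 in KO and -4.02, -3.99 and -3.80 in WT. Both passed the filter through WT alone, the group where they are high. Both were not well above background in KO replicate 2 and did not overlap, with differences of -0.71 and -0.94, and -0.19 and -0.17 without KO replicate 2. Cyp2d40 and, in another subfamily, Cyp2a4 had the same low array (-6.26 and -6.25). Cyp2c37 read -2.35, -2.87 and -2.33 in KO and -2.50, -1.97 and -1.88 in WT (-0.40), and Cyp2c38 read -0.77, -1.96 and -0.92 in KO and -0.67, -1.06 and -1.04 in WT (-0.29). Cyp2d12 read -2.72, -3.30 and -3.65 in KO and -3.88, -3.44 and -3.40 in WT (0.35). In these 3 the groups overlapped, and Cyp2d11 and Cyp2c70 both differed by -0.06. Among single genes of other Cyp2 subfamilies, Cyp2f2, known for activating naphthalene in lung, read 5.14, 5.20 and 5.48 in KO and 4.99, 5.16 and 5.74 in WT (-0.02, 95% interval -0.55 to 0.51). Cyp2t4 passed the filter through KO alone and read -3.08, -3.23 and -3.57 in KO and -3.45, -4.44 and -3.59 in WT (0.54, SE 0.29). Cyp2w1 differed by -0.10. Cyp20a1, an enzyme with no settled substrate, differed by 0.04 (-0.32 to 0.40).

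Across the 40 members well above background on all 6 arrays the median difference was -0.17, beside -0.08 over all 20990 such features. Negative differences numbered 33 of the 40, beside 63.9% of all. In 5 of the 40 the groups did not overlap (19.4% of all such features), 1 with KO above WT (7.56%) and 4 with KO below (11.8%). KO replicate 2 was the lowest array for 22 of the 40 genes (55%, against 24.4% of all features) and the highest for 0 (against 16.2%). Median deviations from the WT mean, in replicate order, were -0.09, -0.36 and -0.07 for KO and -0.06, 0.03 and 0.02 for WT. Without KO replicate 2 the median was -0.08, beside -0.06 over all features. It was -0.07 with slide as a block (beside -0.06 over all features). That fit and the within-slide values take nothing from KO replicate 2, which is alone on its slide. They are thus not checks separate from leaving it out. With age as a covariate, which nearly followed genotype, the median was -0.45 (beside -0.14). Within slide 1 it was 0.02, beside 0.02 over all features, and within slide 2 -0.09, beside -0.12, so the family did not lie below all features within either slide. KO replicate 2 was alone on its slide and had the fewest probes well above background, so slide, array and animal cannot be told apart there. The 95% interval of 30 of the 40 differences lay within 1 log2 unit on either side of 0, and 35 differences were under 0.5 in size.

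**Figure D5:**
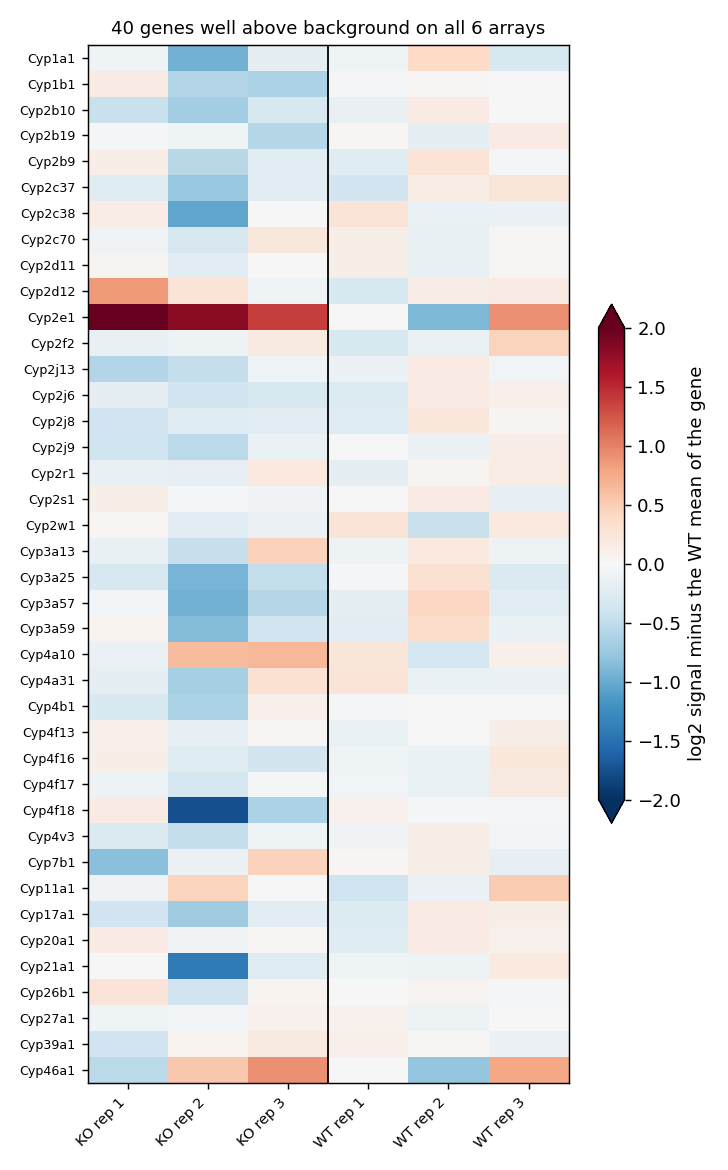
Log2 signal minus the gene's WT mean (colour, cut at 2 on either side) for the 40 genes well above background on all 6 arrays (rows) and the 6 arrays (columns). The Cyp2e1 row is high in all 3 KO columns, and KO replicate 2 is the column with most low values.

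No gene of the lists that serve the whole family passed the adjusted threshold. The counts below stand beside 64.1% negative and 19.3% without overlap over all features. Of 7 electron donors 0 passed and 6 of 7 differences were negative. Por differed by -0.13 (95% interval -0.54 to 0.28), while Cyb5b, Pgrmc1 and Cyb5r3 lay lower in KO without overlap (-0.37, -0.29 and -0.21, limma adjusted p 0.445 to 0.503). Of 14 kept eicosanoid genes 0 passed, 9 were negative, and Alox12, an epidermal lipoxygenase, and Ephx3, an epoxide hydrolase, lay lower without overlap (-0.38 and -0.36). Of 7 kept nuclear receptor genes that control Cyp genes 0 passed, none was without overlap, and Pparg differed by -0.26 (limma adjusted p = 0.64). Of 11 kept conjugation enzymes 0 passed, 7 were negative, and 2 were without overlap, 1 in each direction. The higher of these was Gstp1, a glutathione transferase (0.31, limma adjusted p = 0.427).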

How the data were processed

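Per the file headers, the authors deposited 1 Agilent Feature Extraction 11.5.1.1 file per array, whose intensity values are background-subtracted and detrended by that program, with other columns of flags coded 0 or 1, and with no normalization between arrays. Their processing notes, as given by the submitters, list limma, with no version. The labels' protocols state Trizol extraction, purification with a QIAGEN kit, RNA integrity of 6.5 to 8.5 and Cy3 labelling. The deposited value table, on a log2 scale, was set against the arrays only: columns under WT headings tracked the KO arrays of like number, and the reverse (correlations of 0.887 to 0.931, against -0.583 to -0.192 with the array in the heading), so no comparison uses it.

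Groups, replicate numbers and ages came from the labels. Log2 values of unflagged spots were averaged per probe, 31 of 55681 probes had none on some array, and each array's 75th percentile was subtracted (379.8 to 605 units). No pseudocount was needed. Accessions were matched without versions to RefSeq GRCm38.p6 symbols (27497 probes named), while the array grid refers to mm9. The brightest kept probe stood for a gene. The test of KO against WT was fitted by lmFit and eBayes of limma 3.58.1, run in R 4.3.3 (2-sided, no covariate), over 22823 features with Benjamini-Hochberg adjustment at 0.05, after a check on simulated data. Named were kept members with unadjusted p under 0.05 or no overlap, up to 4 per role or subfamily list by smallest p, and up to 3 per partner list, and some further members were added after their values were seen. Some partner genes are not reported here. Members, lists and rules were chosen with earlier results of these data known. Alternatives covered background correction, scaling, filter, probe choice, slide, age, replicate number and left-out arrays.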

Additional observations from a re-analysis of the deposited data

How the results depend on the processing

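No Cyp gene passed the adjusted threshold under any of the 17 alternatives that were tested, leave-one-out fits included. Over all features few passed as well: 5 in the main fit, 0 with the replicate number as a block and at most 303, without WT replicate 1. The count with unadjusted p under 0.05 (6) was 10 with age as a covariate. It ran from 4 to 9 with 1 array left out and was within 1.5 times under the others. Over all features the count was 2685 in the main fit, 3226 with age and 1655 to 3683 with 1 array left out. The count without overlap (8) was 5 over genes well above background on all arrays. With 1 array left out it ran from 10 to 18. It was 30 without KO replicates 1 and 2 together, where fewer arrays make separation easier. Over all features the count without overlap rose as well when arrays were left out. It was 4413 in the main fit and 4064 over features well above background on all arrays. It ran from 5700 to 9337 with 1 array left out, and was 11196 without KO replicates 1 and 2 together. The median difference (-0.17) was -0.45 with age as a covariate and 0.022 within slide 1, and ran from -0.22 to -0.08 with 1 array left out. The cause of the age and slide shifts was not tested. Array median and quantile scaling moved the median of all features by 0.03 and 0.02. With the replicate number as a replicate block, 5 Cyp genes had unadjusted p under 0.05, 0 passed and the median stayed at -0.17. Over all features 2217 had unadjusted p under 0.05 in that fit and 0 passed. Deviations of same-numbered arrays correlated at -0.128, -0.0363 and 0.0808, so the numbers were not taken as pairs. Among 9 single genes, direction held in every alternative run, except Cyp3a11 within slide 1 (-0.00456). The 9 were chosen by unadjusted p or lack of overlap in these same data. For the 8 without overlap, leaving arrays out cannot turn the direction, so its holding there is no separate support. Cyp2e1 ran from 1.32 to 2.22 with limma adjusted p of 0.202 to 0.992, and Cyp2j11 from 0.34 to 2.51 with adjusted p of 0.0821 to 0.59. The planned normexp correction used median spot signals, chosen after seeing that the files hold no mean signal. Without KO replicates 1 and 2 the lone KO array is assumed to vary like WT. Dim members near background have levels that are not firmly measured or wide intervals, and depth beyond that is set by signal over background.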
